A study of Rattus norvegicus with 8 samples.

Results

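The genes of the rat major histocompatibility complex (MHC), named RT1 in this species, and the genes that load its products with peptide were followed across 4 groups of vessel arrays. All genes with a single symbol that starts with RT1- were taken, together with the named processing genes B2m, Tap1, Tap2, Tapbp, Psmb8, Psmb9, Psmb10, Cd74, Ciita, Erap1, Calr, Canx, Pdia3, Ctss and Ifi30. That gave 50 of the 14506 genes with a value: 9 class II genes, 26 class I genes outside the RT1-A region and 15 processing genes. Nlrc5, the class I transactivator, is not analysed here, and the RT1-A genes share a probe set and have no value of their own. The groups were the ductus arteriosus (DA) of Brown-Norway (BN) neonates, their aorta, the DA of Fischer344 (F344) neonates and their aorta, each with 2 arrays. The DA is the fetal vessel between the pulmonary artery and the aorta, and BN and F344 are inbred rat strains. All neonates were full-term, tissue was taken 1 h after birth, and the labels name no treatment. RNA came from pooled tissues, the labels do not say that replicates were separate pools or litters, and p-values therefore measure only the spread between these samples, which may be technical. One array, BN DA replicate 1, stood apart by high thymocyte and T cell markers. On it 13 of 50 members were at least 0.5 (log2) above replicate 2, against 6.2% of all genes. In each of the 4 groups, replicate 1 had the higher mean of erythroid markers.

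Class I molecules sit on most nucleated cells and present peptides made in the cytosol. The immunoproteasome subunits Psmb8, Psmb9 and Psmb10 cut such peptides, the Tap1 and Tap2 transporter carries them into the endoplasmic reticulum, Tapbp (tapasin), calreticulin (Calr), calnexin (Canx) and Pdia3 help to load them, and B2m is the light chain of the complex. Class II molecules are pairs of an alpha and a beta chain on dendritic cells, macrophages, B cells and thymic epithelium. They are switched on by Ciita, guided by the invariant chain Cd74 and loaded after cathepsin S (Ctss) and Ifi30 have worked on the chain and the antigen. In vessel walls class II is mostly a property of resident macrophages and dendritic cells.

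BN and F344 carry different RT1 haplotypes, and the rat reference genome is that of BN. The sequences of the array probes were not used here. A lower value in F344 can therefore come from less transcript or from bases in the F344 allele that pair less well with a probe, and for the 40 members on chromosome 20, where the MHC lies, these cannot be told apart. Members also share sequence: 5 of the 35 RT1 genes have a probe set whose listed transcripts recur under another probe set, and values of single class I genes are uncertain for that reason. Values are log2 RMA values, and a level of 1 gene cannot be set against that of another because each probe set has its own response. By a filter on brightness (a group mean at or above the median of all genes in at least 1 group), 19 of the 50 genes passed and 31 did not. Psmb8, RT1-Da and RT1-Db1 were among those 31. RT1-Ba passed only through BN DA, where its arrays were at 8.28 and 7.30, and RT1-CE16 only through BN groups.

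The starts of 4 RT1 genes and of Tap1 are shown because the strain results below turn on pairs of genes that differ little in sequence or work together. Each sequence is the RefSeq promoter window of the BN genome (build GRCr8), from 250 bases before to 50 bases after the start of the gene. Capitals mark CCAAT on either strand, the core of the Y box to which NF-Y binds in class II promoters, and a pair of GAAA separated by 2 bases, on either strand, a form of the interferon-stimulated response element. RT1-Ba lies at chr20:4576807-4577106 on the plus strand and RT1-Bb at chr20:4604069-4604368 on the minus strand. RT1-CE16 lies at chr20:3265394-3265693, RT1-CE13 at chr20:3322750-3323049 and Tap1 at chr20:4668494-4668793, all on the minus strand.
RT1-Ba: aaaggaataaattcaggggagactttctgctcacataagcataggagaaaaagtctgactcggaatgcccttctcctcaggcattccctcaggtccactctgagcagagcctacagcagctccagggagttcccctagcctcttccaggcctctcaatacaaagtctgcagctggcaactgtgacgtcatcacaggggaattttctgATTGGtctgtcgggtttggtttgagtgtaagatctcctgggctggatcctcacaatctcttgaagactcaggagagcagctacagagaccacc
RT1-Bb: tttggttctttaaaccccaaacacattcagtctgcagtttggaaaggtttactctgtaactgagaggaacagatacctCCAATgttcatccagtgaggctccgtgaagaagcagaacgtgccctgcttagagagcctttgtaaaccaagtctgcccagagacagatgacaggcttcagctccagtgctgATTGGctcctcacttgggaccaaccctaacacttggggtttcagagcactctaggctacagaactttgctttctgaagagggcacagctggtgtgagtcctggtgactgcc
RT1-CE16: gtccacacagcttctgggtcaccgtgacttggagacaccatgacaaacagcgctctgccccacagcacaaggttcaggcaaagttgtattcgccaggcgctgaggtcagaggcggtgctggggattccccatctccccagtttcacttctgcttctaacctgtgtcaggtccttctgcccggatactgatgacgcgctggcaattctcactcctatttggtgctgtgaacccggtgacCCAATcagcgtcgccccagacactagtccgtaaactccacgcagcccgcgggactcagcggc
RT1-CE13: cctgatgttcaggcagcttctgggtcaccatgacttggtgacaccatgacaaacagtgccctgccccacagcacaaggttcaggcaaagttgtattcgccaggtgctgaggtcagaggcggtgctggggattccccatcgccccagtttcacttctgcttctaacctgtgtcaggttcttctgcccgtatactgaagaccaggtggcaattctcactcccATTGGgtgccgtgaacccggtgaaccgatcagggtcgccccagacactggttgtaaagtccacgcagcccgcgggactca
Tap1: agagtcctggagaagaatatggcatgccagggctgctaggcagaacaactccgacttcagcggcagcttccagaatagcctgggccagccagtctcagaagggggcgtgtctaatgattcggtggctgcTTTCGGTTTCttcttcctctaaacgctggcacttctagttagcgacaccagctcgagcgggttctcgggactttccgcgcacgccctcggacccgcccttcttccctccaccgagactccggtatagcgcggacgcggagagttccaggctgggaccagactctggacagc

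A promoter window was found for 43 of the 50 genes. CCAAT was present in 8 of 8 class II windows, 15 of 23 class I windows and 7 of 12 windows of processing genes, against 37.5% of all 33469 rat promoter windows. The spaced GAAA pair was present in 7 of 12 windows of processing genes (B2m, Ctss, Psmb8, Psmb10, Tap1, Tap2 and Tapbp), in 3 of 23 class I windows and in 0 of 8 class II windows, against 3.92% of all windows. The windows of Tap1 and Psmb9 point away from each other and overlap by 44 bases. Among the RT1 genes, 40 pairs of windows could be aligned over at least 200 bases, and all were pairs of class I genes, with a median identity of 82.2%. RT1-CE13 and RT1-CE16 were identical at 91.5% of aligned positions. Such matches describe letters in the BN genome and do not show that a factor binds there.

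The strain comparison asked how BN vessels differ from F344 vessels. Over both vessels, RT1-Ba and RT1-CE16 rose in BN and no member fell (2 of 50 called, where limma called 2.65% of all genes, 1.63% as higher in BN, at a Benjamini-Hochberg adjusted p under 0.05). At an unadjusted p under 0.05 there were 13 of 50, 10 higher and 3 lower in BN, against 19% of all genes. The median size of the difference was 0.12 on the log2 scale for the members and 0.12 for all genes. Within the DA these medians were 0.17 for the members and 0.18 for all genes, and within the aorta 0.14 and 0.10, and these differences in median were not tested. Within the DA limma called 0 of 50 (6 at an unadjusted p under 0.05), against 4.53% of all genes called and 22.8% at the unadjusted threshold. Within the aorta it also called 0 of 50 (4 at an unadjusted p under 0.05), against 0.159% called and 5.22%.

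**Figure D1:**
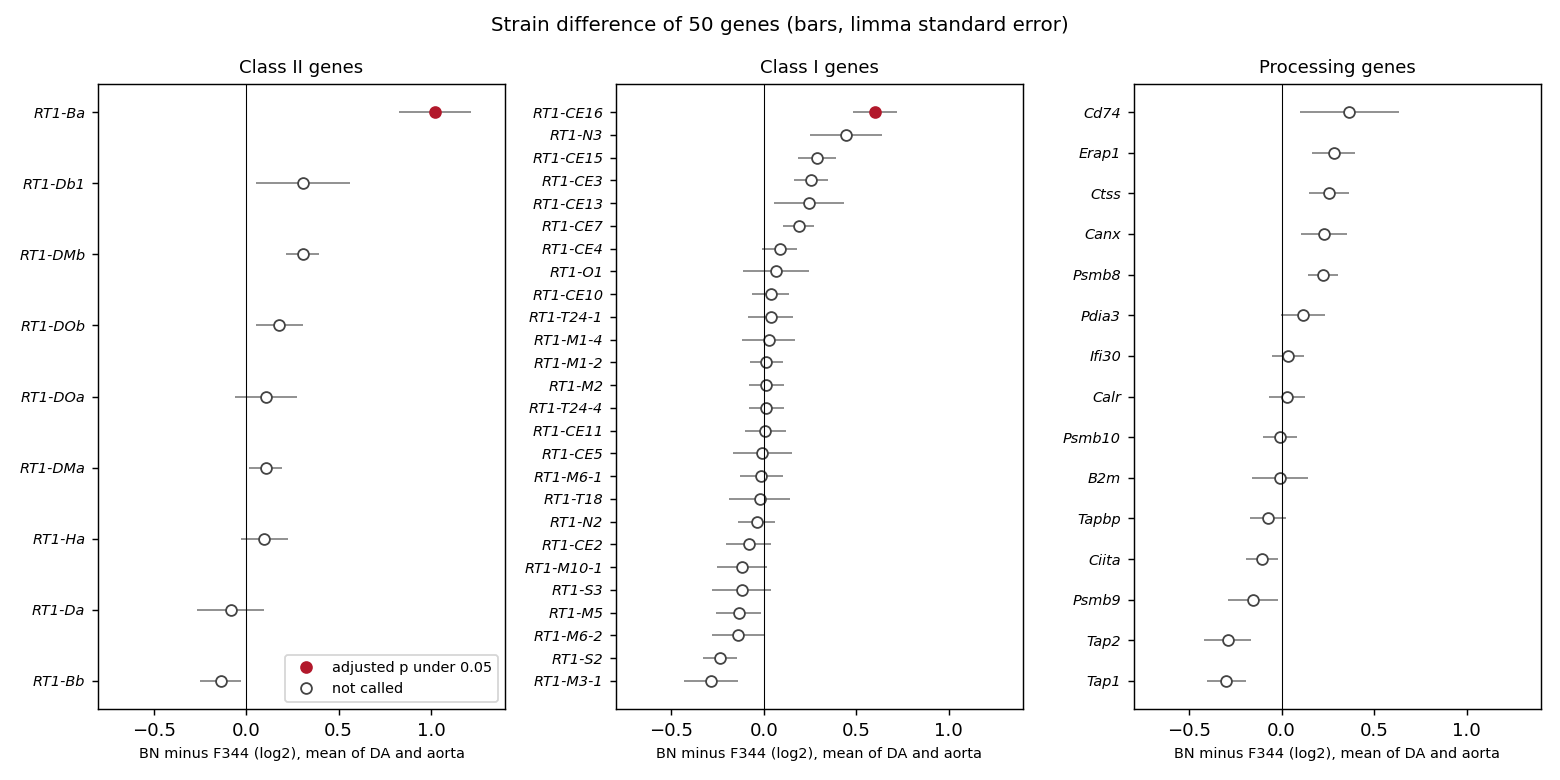
Strain difference of each of the 50 genes, as BN minus F344 in log2 units averaged over DA and aorta (x axis), with the limma standard error as a bar. The filled points are RT1-Ba at 1.02 and RT1-CE16 at 0.60, which passed an adjusted p of 0.05, and the open points of the other genes lie between -0.30 and 0.44.

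RT1-Ba encodes the alpha chain of RT1-B, the rat class II molecule that corresponds to human HLA-DQ. It was at 8.28 and 7.30 in BN DA, against 6.84 and 6.84 in F344 DA. In aorta it was at 7.59 and 7.30 in BN, against 6.54 and 6.17 in F344. All 4 BN arrays lay above all 4 F344 arrays. The difference was 2.03-fold (log2 1.02 ± 0.19 SE, limma adjusted p = 0.0328), with 0.95 ± 0.28 in the DA (limma adjusted p = 0.0791) and 1.09 ± 0.28 in the aorta (limma adjusted p = 0.386). The difference was 0.78 without BN DA replicate 1, the highest array, and 1.27 without BN DA replicate 2. In both fits the gap of 0.98 between the BN DA replicates does not enter the spread, so they do not test the call. The call was lost when any of the BN aorta or F344 arrays was left out, with differences between 0.93 and 1.11. Leaving out either BN DA array cannot change the difference within the aorta alone (1.09), only the spread it is set against. RT1-Ba was called there in 3 of 18 alternatives, which include both of those fits.

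RT1-Bb, the beta chain that pairs with the product of RT1-Ba, did not show that difference. It was at 7.29 and 7.05 in BN DA, against 7.30 and 7.43 in F344 DA, and at 6.79 and 7.13 in BN aorta, against 7.13 and 6.94 in F344 aorta. Both BN arrays lay below both F344 arrays in DA, by a small amount, and the strains overlapped in aorta. The difference over both vessels was -0.14 ± 0.11 SE (limma adjusted p = 0.557). Both chains of the RT1-B pair have the sequence ATTGG in their promoter windows above. The other classical class II pair, RT1-D, corresponds to human HLA-DR. Its alpha chain gene RT1-Da was at 7.10 and 6.23 in BN DA, against 6.79 and 7.10 in F344 DA, and at 6.32 and 6.20 in BN aorta, against 5.98 and 6.33 in F344 aorta. Its beta chain gene RT1-Db1 was at 6.95 and 5.54 in BN DA, against 5.64 and 5.88 in F344 DA, and at 6.06 and 5.80 in BN aorta, against 5.69 and 5.89 in F344 aorta. BN DA replicate 1 was above replicate 2 for both RT1-D chains. Averaged over vessels the strain difference was -0.08 ± 0.18 for RT1-Da and 0.31 ± 0.25 for RT1-Db1, neither of which passed. Without BN DA replicate 1 these were -0.30 for RT1-Da and -0.04 for RT1-Db1, so that the sign of RT1-Db1 turned. Without BN DA replicate 2 RT1-Da was at 0.13 and RT1-Db1 at 0.66.

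RT1-DMa and RT1-DMb form the peptide editor of class II, and RT1-DOa and RT1-DOb form its modulator. RT1-DMb was at 7.45 and 7.56 in BN DA, against 7.21 and 7.24 in F344 DA, and at 7.99 and 7.78 in BN aorta, against 7.48 and 7.63 in F344 aorta. BN arrays lay above F344 arrays within each vessel, with a difference of 0.31 ± 0.09 SE that did not pass (limma adjusted p = 0.109). RT1-DMa (0.11 ± 0.09), RT1-DOa (0.11 ± 0.17), RT1-DOb (0.18 ± 0.13) and RT1-Ha (0.10 ± 0.13) did not pass either. The invariant chain gene Cd74 was at 9.36 and 8.05 in BN DA, against 8.32 and 8.44 in F344 DA, and at 8.69 and 7.88 in BN aorta, against 7.91 and 7.84 in F344 aorta. Replicate 1 was the brighter array of both BN groups, and the strain difference was 0.37 ± 0.27 SE (limma adjusted p = 0.505). It was 0.04 without BN DA replicate 1 and 0.69 without replicate 2. Ciita was at 6.75 and 6.71 in BN DA, against 6.93 and 6.88 in F344 DA, and at 6.49 and 6.64 in BN aorta, against 6.65 and 6.55 in F344 aorta, a difference of -0.11 ± 0.09 that did not pass.

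**Figure D2:**
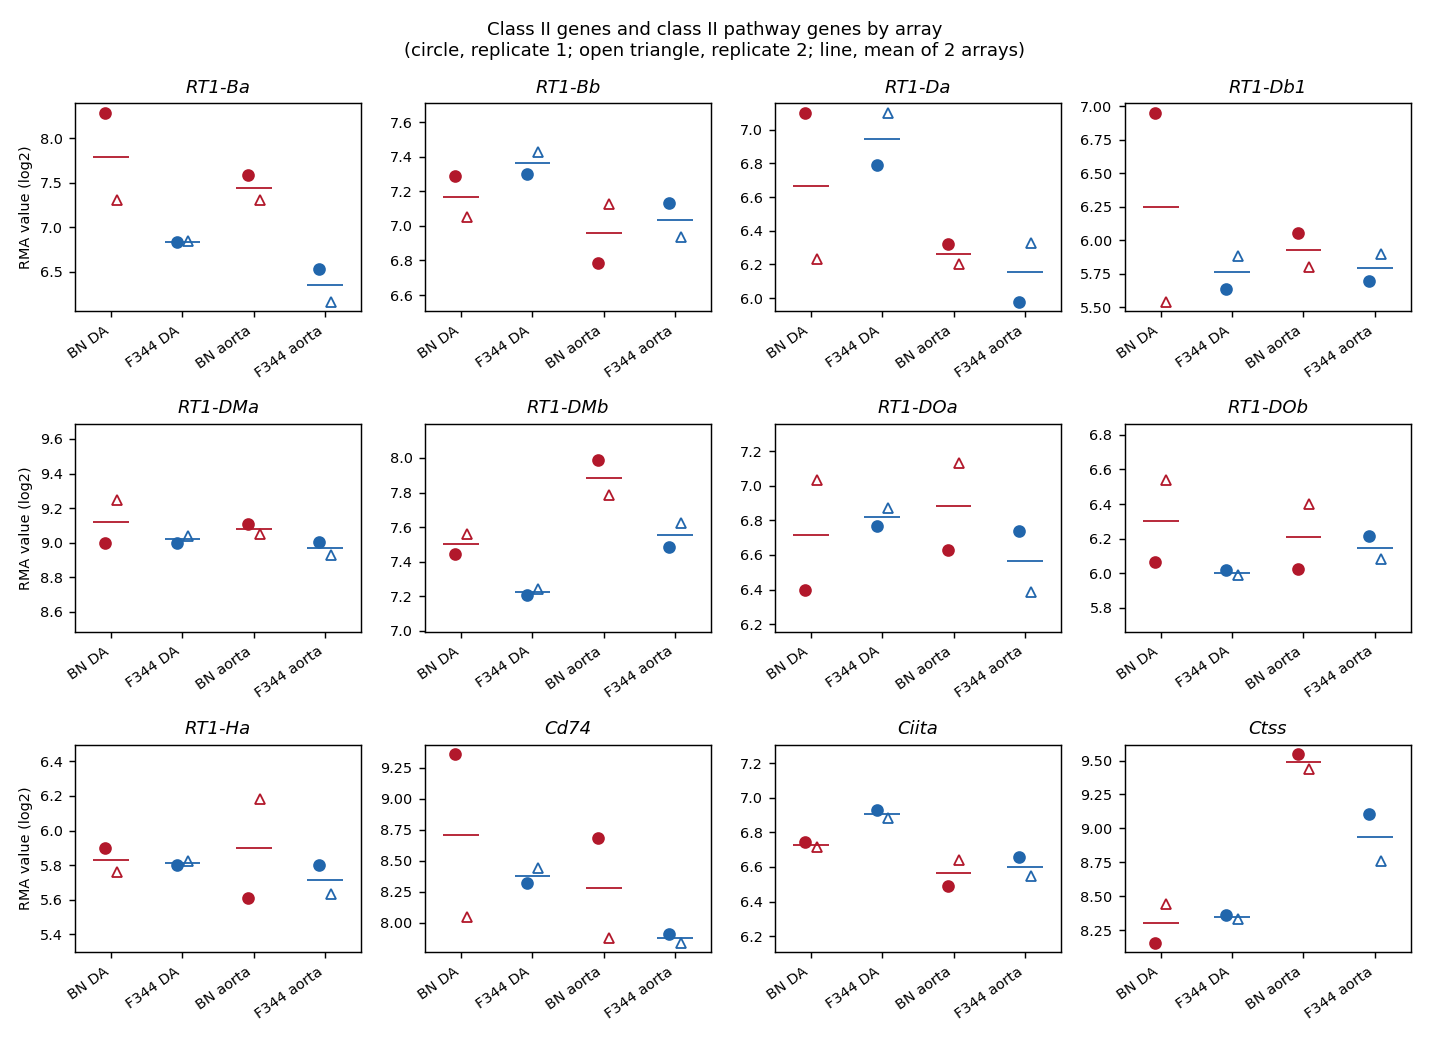
RMA values (log2, y axis, own range per panel) of the 9 class II genes, Cd74, Ciita and Ctss on every array, in the order BN DA, F344 DA, BN aorta and F344 aorta. RT1-Ba is higher on all 4 BN arrays than on all 4 F344 arrays, RT1-Bb is slightly lower on the BN DA arrays than on the F344 DA arrays and overlaps in aorta, BN DA replicate 1 is high for RT1-Da, RT1-Db1 and Cd74, and Ctss is lower in DA than in aorta in both strains.

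Some markers of macrophages, which are among the class II cells of the vessel wall, differed by strain. Of 15 macrophage markers 2 rose in BN over both vessels and 0 fell, where limma called 2.65% of all genes. The complement genes C1qa and C1qc rose by 0.50 ± 0.10 and 0.59 ± 0.12 (limma adjusted p = 0.0392 and 0.0402). The median of the 15 markers was 0.28 against -0.01 for all genes. Their mean was 7.17 and 7.44 in BN DA, against 7.00 and 6.90 in F344 DA, and 7.75 and 7.66 in BN aorta, against 7.54 and 7.33 in F344 aorta. The list was thus higher on every BN array than on the F344 arrays of the same vessel. Within the DA limma called 1 of the 15 markers (C1qc), against 4.53% of all genes, and within the aorta 0, against 0.159%. Dendritic cell markers (7 tested) had means between 6.38 and 6.65 and B cell markers (4 tested) between 6.08 and 6.46 over all 8 arrays. The part of any of these cells in the RT1-Ba difference was not tested, and in bulk RNA fewer cells of a type and less RNA per cell cannot be told apart. Smooth muscle markers, which define the labelled vessels, had means between 11.36 and 11.98 on the 8 arrays.

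Among class I genes RT1-CE16 differed most. It is a class I gene of the RT1-C/E region, which lies apart from RT1-A, and it was at 7.81 and 7.45 in BN DA, against 7.10 and 6.95 in F344 DA. In aorta it was at 8.06 and 7.75 in BN, against 7.20 and 7.42 in F344. All 4 BN arrays lay above all 4 F344 arrays, with a 1.52-fold difference (log2 0.60 ± 0.12 SE, limma adjusted p = 0.037) and nearly equal values in DA (0.61) and aorta (0.60). The difference was 0.51 without BN DA replicate 1 and 0.69 without replicate 2, fits in which the gap between the BN DA replicates does not enter the spread. The call was lost when any BN aorta or F344 array was left out (differences between 0.52 and 0.68). It was also lost after centring on brighter genes (0.53, limma adjusted p = 0.0511).

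RT1-CE13, whose promoter window is the closest to that of RT1-CE16, had another pattern. It was at 8.72 and 7.68 in BN DA, against 7.67 and 7.80 in F344 DA, and at 7.60 and 7.64 in BN aorta, against 7.65 and 7.54 in F344 aorta. On this probe set BN DA replicate 1 alone was high, and the strain difference of 0.25 ± 0.19 SE did not pass. It was -0.01 without that array and 0.51 without BN DA replicate 2. Another probe set, listed jointly for RT1-CE13 and RT1-CE14, shares listed transcripts with it and did not show that peak. It was at 6.85 and 6.73 in BN DA, against 6.70 and 6.51 in F344 DA. In aorta it was at 7.01 and 6.66 in BN, against 6.59 and 6.72 in F344. Its strain difference was 0.18 ± 0.11 SE (limma adjusted p = 0.41 in a fit of all 15633 named probe sets). Of the 10 RT1-CE genes, 8 had a positive strain difference, with a range from -0.08 to 0.60. Beside RT1-CE16, RT1-CE7 and RT1-CE15 had all BN arrays above all F344 arrays, as did 4.3% of all genes. RT1-CE3 had BN arrays above F344 arrays only within each vessel, where 14.4% of all genes were apart in the same direction in both vessels. None of these 3 passed. RT1-CE15 was at 8.94 and 9.08 in BN DA, against 8.55 and 8.85 in F344 DA, and at 8.89 and 9.13 in BN aorta, against 8.73 and 8.76 in F344 aorta (0.29 ± 0.10 SE, limma adjusted p = 0.169). RT1-CE3 differed by 0.26 ± 0.09 and RT1-CE7 by 0.19 ± 0.08.

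The genes RT1-M, N, O, S and T encode nonclassical class I chains. The 8 RT1-M genes had strain differences between -0.29 and 0.03. The most negative was that of RT1-M3-1, whose mouse counterpart presents formylated peptides. It was at 6.60 and 5.96 in BN DA, against 6.60 and 6.76 in F344 DA, and at 6.54 and 6.16 in BN aorta, against 6.56 and 6.49 in F344 aorta, so that replicate 2 was the lower array of both BN groups (-0.29 ± 0.15, limma adjusted p = 0.337). Without BN DA replicate 1 the difference was -0.45. RT1-N3 was at 7.52 and 6.45 in BN DA, against 6.40 and 6.39 in F344 DA, and at 6.85 and 6.69 in BN aorta, against 6.46 and 6.49 in F344 aorta. BN arrays lay above F344 arrays within each vessel, and the difference of 0.44 ± 0.19 SE did not pass. It was 0.18 without BN DA replicate 1 and 0.71 without replicate 2. RT1-S2 had a difference of -0.24 ± 0.09, and the remaining genes of these families lay between -0.12 and 0.07.

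**Figure D3:**
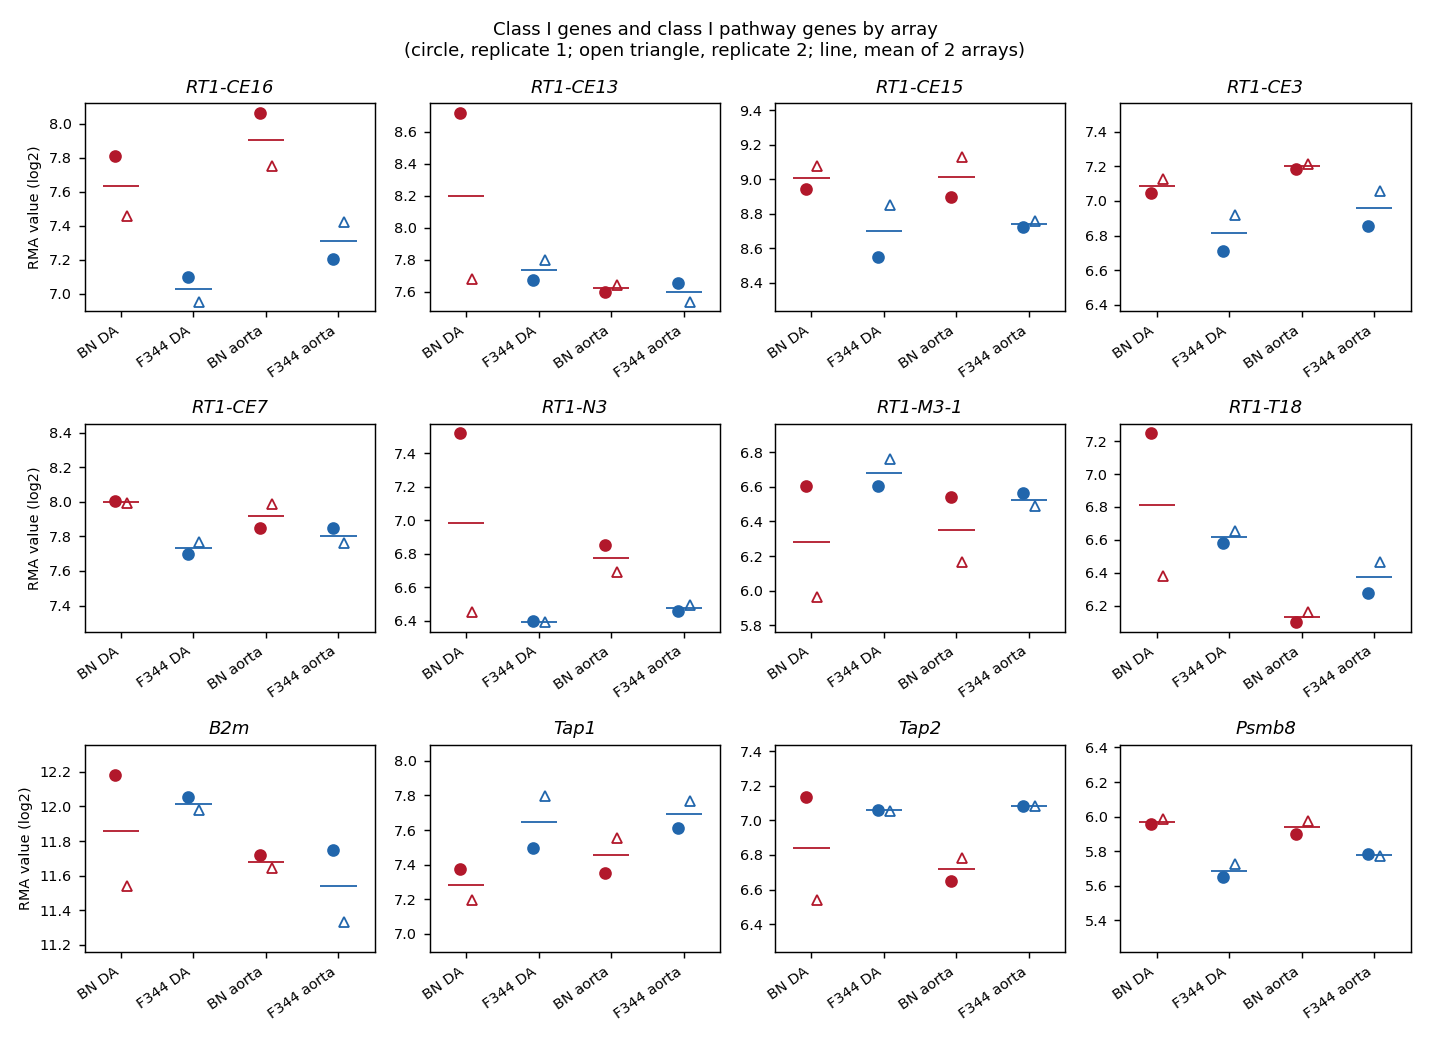
RMA values (log2, y axis, own range per panel) of 8 class I genes and of B2m, Tap1, Tap2 and Psmb8 on every array, in the order BN DA, F344 DA, BN aorta and F344 aorta. RT1-CE16 and Psmb8 are higher on all BN arrays than on all F344 arrays, Tap1 is lower in BN within each vessel, and RT1-CE13, RT1-N3 and RT1-T18 are high on BN DA replicate 1.

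The genes that supply and load class I peptides did not pass, and their values went both ways. Tap1 was at 7.37 and 7.19 in BN DA, against 7.50 and 7.79 in F344 DA, and at 7.35 and 7.56 in BN aorta, against 7.61 and 7.77 in F344 aorta. BN arrays lay below F344 arrays within each vessel (-0.30 ± 0.11 SE, limma adjusted p = 0.165). Tap2 was at 7.13 and 6.54 in BN DA, against 7.06 and 7.06 in F344 DA, and at 6.65 and 6.78 in BN aorta, against 7.08 and 7.08 in F344 aorta. Both BN aorta arrays were lower, BN DA replicate 1 was not, and the difference was -0.29 ± 0.13 (limma adjusted p = 0.254). Without BN DA replicate 1 the difference was -0.44.

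Psmb8 went the other way. It was at 5.96 and 5.98 in BN DA, against 5.65 and 5.72 in F344 DA, and at 5.90 and 5.98 in BN aorta, against 5.78 and 5.77 in F344 aorta. All BN arrays lay above all F344 arrays by a small amount (0.22 ± 0.08, limma adjusted p = 0.172). Psmb8 was dim, with a mean above that of only 16.8% of all genes. The promoter window of Psmb9 overlaps that of Tap1 by 44 bases, and the starts of the genes lie 457 bases apart. Psmb9 was at 7.05 and 6.93 in BN DA, against 7.26 and 7.38 in F344 DA. In aorta it was at 6.84 and 7.30 in BN, against 7.28 and 6.82 in F344. Its difference over both vessels was -0.15 ± 0.14. Psmb10 was at 7.36 and 7.32 in BN DA, against 7.35 and 7.43 in F344 DA, and at 7.21 and 7.47 in BN aorta, against 7.26 and 7.34 in F344 aorta (-0.01 ± 0.09). The aorta arrays of the strains overlapped for Psmb9 and those of both vessels for Psmb10.

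B2m was at 12.18 and 11.54 in BN DA, against 12.05 and 11.98 in F344 DA, and at 11.72 and 11.64 in BN aorta, against 11.75 and 11.33 in F344 aorta. The strains overlapped in both vessels, and the difference was -0.01 ± 0.15 (limma adjusted p = 0.987). Tapbp was at 7.36 and 7.16 in BN DA, against 7.26 and 7.10 in F344 DA, and at 7.44 and 7.21 in BN aorta, against 7.58 and 7.52 in F344 aorta (-0.07 ± 0.10). Erap1, which trims peptides in the endoplasmic reticulum, was at 9.47 and 9.08 in BN DA, against 8.87 and 8.68 in F344 DA. It differed by 0.51 ± 0.16 in DA (limma adjusted p = 0.108) and by 0.06 ± 0.16 in aorta. Calr, Canx, Pdia3 and Ifi30 had averaged strain differences between 0.03 and 0.23, with none called.

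Over all arrays, 5 of 50 members lay higher in BN with no overlap between the strains (Psmb8, RT1-Ba, RT1-CE7, RT1-CE15 and RT1-CE16) and 0 lay lower, against 6.14% of all genes, 4.3% of them higher and 1.84% lower in BN. Arrays were apart in the same direction within both vessels for 9 members, these 5 with RT1-CE3, RT1-DMb and RT1-N3 higher in BN and Tap1 lower, against 14.4% of all genes.

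Genes around the members and in their pathways were read from lists. Over both vessels limma called 2.65% of all genes, and 19% had an unadjusted p under 0.05. Of 60 other genes of the MHC region (with Tapbp among them), 0 rose and 3 fell in BN over both vessels, and the median was -0.04. Vps52, a vesicle tethering gene, was at 8.98 and 8.73 in BN DA, against 9.90 and 9.75 in F344 DA, and at 9.02 and 8.99 in BN aorta, against 9.98 and 10.03 in F344 aorta. All BN arrays lay below all F344 arrays, by 0.97 in DA and 1.00 in aorta (limma adjusted p = 0.0111 and 0.0236). The others were Ier3 (-0.52 ± 0.10) and the sialidase gene Neu1 (-0.42 ± 0.09). Of 26 interferon response genes 0 rose and 0 fell (5 at an unadjusted p under 0.05), with a median of 0.01. Of 17 genes of the proteasome core and its activators Psme4 rose by 0.42 ± 0.08 and 0 fell. Of 12 genes of peptide handling and class II transcription Sppl2a, whose product cuts the remnant of Cd74, rose by 0.59 ± 0.12 and 0 fell. Of 13 cathepsin and other class II pathway genes 0 rose and 0 fell (5 at an unadjusted p under 0.05).

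The vessels were compared within each strain. Ctss, the cathepsin that cuts the invariant chain, fell in DA in both strains, and no other member was called in either. It was at 8.16 and 8.45 in BN DA, against 9.55 and 9.44 in BN aorta, and at 8.36 and 8.33 in F344 DA, against 9.11 and 8.76 in F344 aorta. The DA arrays lay below the aorta arrays in each strain. Ctss was 2.28-fold lower in BN DA (log2 -1.19 ± 0.15 SE, limma adjusted p = 0.00865) and 1.5-fold lower in F344 DA (-0.59 ± 0.15 SE, limma adjusted p = 0.0349). In BN 1 of 50 members was called (4 at an unadjusted p under 0.05), against 1.81% of all genes called, 0.82% as lower, and 14% at the unadjusted threshold. In F344 1 of 50 was called (7 at an unadjusted p under 0.05), against 14% of all genes called, 5.12% as lower, and 29.5% at the unadjusted threshold. The F344 call was lost after centring on brighter genes (-0.38, adjusted p = 0.16), after repeated quantile normalization (-0.38, adjusted p = 0.184), and without either BN aorta array (adjusted p = 0.0504), F344 DA replicate 1 or 2 (0.126 and 0.177) or F344 aorta replicate 1 (0.263), within a range of 0.0103 to 0.263 over its alternatives. The BN call was lost without BN aorta replicate 1 (adjusted p = 0.106) and in a fit of the 4 BN arrays (0.0738), within a range of 0.0028 to 0.106. Leaving out either BN DA array cannot change the F344 differences of B2m (0.48), RT1-Da (0.79) and RT1-S3 (-0.54), only the spread they are set against. These did not pass with all arrays.

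Markers of macrophages and of endothelium were read beside Ctss. In BN 0 of 15 macrophage markers rose and 0 fell in DA by limma (4 at an unadjusted p under 0.05), with a list median of -0.33. In F344 0 rose and 3 fell (Csf1r by 0.99, C1qa by 0.49 and C1qc by 0.71), with a median of -0.45, where 14% of all genes were called. Of 10 endothelial markers 0 rose and 0 fell in BN by limma (1 at an unadjusted p under 0.05), with a median of 0.09. In F344 0 rose and 6 fell (Cldn5, Esam, Sox17, Sox18, Tek and Tie1), with a median of -0.62. Their part in the Ctss difference was not tested. Among class II genes, RT1-Ba, RT1-Bb and RT1-Da had positive DA minus aorta values in both strains, the highest that of RT1-Da in F344 (0.79 ± 0.26 SE, limma adjusted p = 0.073). RT1-Db1 was at 0.32 ± 0.36 in BN and -0.03 ± 0.36 in F344. Without BN DA replicate 1 the BN values turned to -0.14 for RT1-Ba, -0.03 for RT1-Da and -0.38 for RT1-Db1. RT1-DMb was at -0.38 ± 0.13 in BN and -0.33 ± 0.13 in F344. None of these passed with all arrays. Centring on brighter genes moved the median of all genes in F344 by 0.21, and 3 members were then called higher in DA (B2m by 0.69, Ciita by 0.51 and RT1-Da by 1.00) and 0 lower. Whether a strain difference depended on the vessel was tested by the interaction, which limma called for 0 of 50 members and 0% of all genes. At an unadjusted p under 0.05 there was 1 member, Ctss, against 9.67% of all genes (-0.60 ± 0.22 SE, limma adjusted p = 0.445).

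BN DA replicate 1 stood apart in this gene set. There, 13 of 50 members were at least 0.5 higher than on replicate 2, against 6.2% of all genes, and 1 was at least 0.5 lower. In either direction these were 14 of 50 members, against 13.1% of all genes. In BN aorta 1 member was that much higher and 5 were lower on replicate 1, against 5.27% of all genes in either direction. In F344 DA and F344 aorta 0 members differed that much, against 3.14% and 2.09% of all genes. The largest gaps in BN DA were those of RT1-Db1 (1.41), Cd74 (1.31), RT1-N3 (1.07) and RT1-CE13 (1.04). RT1-Ba, RT1-Da, RT1-T18, RT1-S3, B2m and Tap2 were between 0.98 and 0.59 higher. Class II and class I genes were thus among them, whereas Ciita (0.03) and RT1-CE7 (0.01) hardly differed.

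The 12 tested markers of thymocytes and T cells averaged 7.28 on that array, while the 7 remaining arrays lay at 6.13 to 6.32. Rag1, the recombinase gene of immature lymphocytes, was at 8.20 on that array and between 5.58 and 5.95 on the others, and Cd3g was at 6.84 against 4.51 to 5.13. Macrophage markers were not higher there than on replicate 2 (7.17 and 7.44), and B cell markers were at 6.26 and 6.27. The 8 tested erythroid markers averaged 8.61 on replicate 1 and 7.55 on replicate 2 of BN DA. They were also higher on replicate 1 in the other groups, with 8.15 and 7.50 in BN aorta, 8.25 and 7.44 in F344 DA and 7.75 and 7.17 in F344 aorta. The part of thymic tissue or of blood cells in the members' values was not tested. Without BN DA replicate 2, replicate 1 stands alone for the group. The BN minus F344 difference in DA was then 1.19 for RT1-Db1, 1.12 for RT1-N3, 0.99 for RT1-CE13 and 0.98 for Cd74. Without replicate 1, RT1-M3-1 was lower in BN DA by 0.72. Between the BN vessels without replicate 2, the DA minus aorta difference was -1.33 for Ctss and 1.08 for Cd74. It was 1.03 for RT1-Db1, 0.84 for RT1-Ba and 0.84 for RT1-Da, and RT1-CE13, RT1-N3 and RT1-T18 were also higher in DA. The share of all genes that differed as much in these fits is not given. These values therefore do not set the members apart from other genes. The lone array was assumed to vary like the other groups in these fits.

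**Figure D4:**
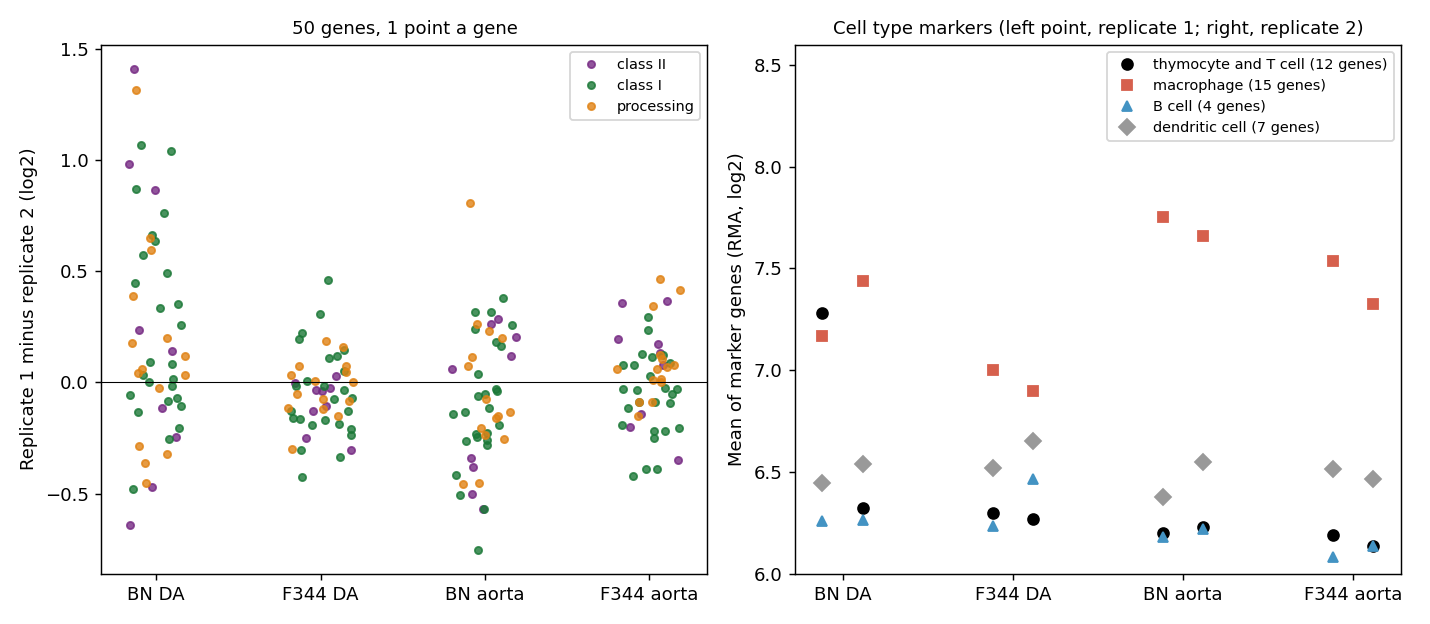
Left, replicate 1 minus replicate 2 (log2, y axis) of each of the 50 genes in BN DA, F344 DA, BN aorta and F344 aorta; right, the mean RMA value (log2) of cell type marker lists on each array. The points of BN DA reach 1.41, and the thymocyte and T cell mean is 7.28 on BN DA replicate 1 and at most 6.32 on the other arrays.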

How the data were processed

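RNA of DA and aorta from BN and F344 neonates was hybridised to Affymetrix Rat Gene 1.0 ST arrays, 150 ng of total RNA each, per the labels' protocols. The deposited values are log2 values, taken as such from their range (1.07 to 14.2), and RMA is named in the submitters' processing notes. That method usually comprises background correction, quantile normalization and probe summary. Its settings and the genome build were not given in the sources used here. Precision is limited by 8 arrays.

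Of 29215 probe sets, 15310 had 1 symbol in the platform annotation of 2016, 323 several and 13582 none. The brightest probe set per gene was kept (527 genes had several), which left 14506 genes. All 50 members matched RefSeq by Entrez identifier. Limma (version 3.58.1, R 4.3.3) fitted a mean per group to all 8 arrays, with eBayes, two-sided tests and Benjamini-Hochberg adjustment over all genes. The code was also run on simulated normal values, independent and with the same spread in every group. The arrays here differed in spread between groups and their replicate deviations were correlated, so that run does not test the calls. Errors are standard errors.

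Members and lists were chosen with earlier results of these data known. By rule, called members and the main chain and processing genes were given by array, with up to 4 called genes per list; RT1-CE13, RT1-CE15, RT1-DMb, RT1-M3-1, RT1-N3 and Erap1 were added after their values were seen. The labels do not say what a replicate number marks, so it was no block in the main model. The closing section gives the alternatives.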

Additional observations from a re-analysis of the deposited data

How the results depend on the processing

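Numbers of members called, with the reported count first, changed as follows. The share of all genes called in each alternative is not given, so these counts cannot be set against it. With 1 array left out, its group keeps a lone array, and the replicate gap of that group does not enter the spread. For BN against F344 in DA (0) it was 1 after repeated quantile normalization (Psmb8) and 0 to 8 with 1 array left out; in aorta (0) it was 1 in a fit with only the arrays compared (RT1-Ba) and 0 to 1 with 1 array left out; over both vessels (2) it was 1 after centring on brighter genes and 0 to 6 with 1 array left out. For DA against aorta in F344 (1) it was 3 after centring, 5 with array weights, 8 with only the arrays compared and 0 to 4 with 1 array left out. In BN (1) it was 0 with only the arrays compared and 0 to 7 with 1 array left out. The interaction stayed at 0 in every fit run for it; a fit of only the arrays compared was not run for it or for the mean over vessels, which use all 8 arrays. With the replicate number as a block, 3 members were called for the strains in DA (Erap1, RT1-Ba and RT1-CE16), and 2 for the vessels in F344, and the other counts were as reported. Replicate deviations of the groups correlated between 0.03 and 0.52 over genes, over 0.1 in 5 of 6 pairs of groups, and erythroid markers were higher on replicate 1 in all 4 groups. The labels name no litter, batch or day for a number, and what same-numbered arrays share was not tested. A mean-variance trend, averaging over all probe sets of each gene and, chosen after seeing the data, leaving out chemosensory receptor genes and fitting every named probe set gave the same counts. Leaving out dim genes also did, but it removed 31 of 50 members. It kept RT1-Ba only through BN DA and RT1-CE16 only through BN groups, so it supports nothing about them. Only the called members, the main chain and processing genes and a few added ones were followed gene by gene, not all 50 members. RT1-CE13, RT1-N3, RT1-S3 and RT1-T18 were not among them. For BN against F344, in fits that left out no single array, 4 of their values newly passed in DA and 1 in aorta. Over both vessels 1 no longer passed. For DA against aorta 12 newly passed and 2 no longer passed in F344, and 1 no longer passed in BN. None that was called changed sign. Except where fewer arrays were fitted, the cause of a change was not tested. The number of arrays, 2 per group, limits what could be called.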

Other observations

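The only readout of the classical RT1-A region was a probe set listed jointly for RT1-A1, RT1-A2 and RT1-A3, which names no single gene. It was at 7.78 and 7.39 in BN DA, against 7.42 and 7.32 in F344 DA, and at 7.86 and 7.62 in BN aorta, against 7.54 and 7.63 in F344 aorta. The strains overlapped, and in a fit of all 15633 named probe sets the difference was 0.18 ± 0.11 SE (limma adjusted p = 0.424).

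Probe sets listed for several RT1-CE genes were also outside the 50 genes. The probe set listed for RT1-CE1 and RT1-CE12 was at 7.54 and 7.11 in BN DA, against 6.88 and 6.92 in F344 DA, and at 7.30 and 7.29 in BN aorta, against 6.98 and 7.05 in F344 aorta. The probe set listed for RT1-CE7, RT1-CE1 and RT1-CE12 was at 7.89 and 7.79 in BN DA, against 7.35 and 7.41 in F344 DA, and at 7.50 and 7.77 in BN aorta, against 7.32 and 7.41 in F344 aorta. All 4 BN arrays lay above all 4 F344 arrays for both, with differences of 0.36 ± 0.11 and 0.36 ± 0.09 that did not pass (limma adjusted p = 0.119 and 0.0827). They share listed transcripts, so they are not separate measurements of the same genes. The second probe set of RT1-CE7 had a strain difference of 0.11 ± 0.10, against 0.19 ± 0.08 for the one used above.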
